A study of Mus musculus with 26 samples.

Results

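The 6 genes described here are Atp8a2, Lrrc55, Wfdc1, Chodl, Slc22a3 and Slc26a7, autosomal mouse genes picked because their counts differed widely between female (XX) and male (XY) fetal mesenchyme at embryonic day E14.5 or E16.5. Each has 1 row in each of the RNA-seq count tables, so they are 6 of 41442 rows, and all 6 passed the filter on low counts in both tables. They were selected on the sex differences in the fetal libraries, with no threshold named. Fetal values are therefore given as a description, with standard errors and without a test, and the uterine libraries, which the choice did not use, carry the tests.

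All fetal libraries came from the mesonephros, the embryonic kidney region that houses the Wolffian (male) and Müllerian (female) ducts, of embryos carrying Gli1-CreER and Rosa-Tomato. Their dams received 1 mg tamoxifen on E12.5 and E13.5, and Gli1+ mesenchyme was sorted. CreER acts only while tamoxifen is present, so the sort holds cells that expressed Gli1, a Hedgehog target gene, around the injections, together with their descendants. There were 3 RNA-seq libraries for each of 4 groups: females at E14.5, males at E14.5, females at E16.5 and males at E16.5. A separate table held 6 libraries of female uterus, called neonatal and aged E19.5 in the labels: 3 of Amhr2+ cells, marked by Amhr2-Cre with Rosa-Tomato, and 3 of Gli1+ cells, marked as in the fetuses. Amhr2-Cre needs no tamoxifen, although the stated injections cover the dams of both lines. The ATAC-seq part of the series, which maps open chromatin in Gli1+ cells of the 4 fetal groups with 2 samples each, was deposited as 1 list of peaks with no value per sample. How many animals went into a library is not stated, and nothing says that replicates came from separate litters, so errors measure the spread between these libraries.

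Total counts ran from 23382983 to 64602477 in the fetal libraries and from 28709191 to 37541045 in the uterine libraries. Levels are given as CPM, counts scaled to library size so that libraries of different depth can be compared. The floor used here is 3 counts, worth 0.0464 to 0.128 CPM where the library was fetal and 0.0799 to 0.104 CPM where it was uterine. Xist and Ddx3y separated the sexes as labelled in every fetal library, but at E14.5 male replicate 3 held 16.2 CPM of Xist against 0.673 and 0.915 in the other two, and female replicate 3 held 2.17 CPM of Ddx3y against 0 in the other two. That female library also held the highest summed level of 5 erythroid markers, 886 CPM, where the group's lowest was 6.49. At E16.5 the Gli1 transcript itself was 50.7 ± 2.88 CPM on average among females and 208 ± 13.3 CPM among males (SD, n = 3 each). At E14.5 it was 184 ± 0.295 CPM among females and 228 ± 17.0 CPM among males. The sorted population therefore carried unequal Gli1 between the sexes at both ages, more so at E16.5. The part of this in the results below was not tested. Markers of mesenchyme summed to between 24309 and 44209 CPM, markers of epithelium to between 22.2 and 52.5 CPM and markers of the nephron to under 1 CPM in the fetal libraries. Markers of endothelium summed to between 62.1 and 124 CPM there, and markers of gonad somatic cells to between 37.5 and 68.0 CPM. The part of such cells in the sex differences was not tested.

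In this tissue the male Wolffian duct is kept under androgen and becomes epididymis and vas deferens, while the Müllerian duct of females becomes oviduct and uterus. The mesenchyme around each duct signals to its epithelium and later forms stroma and smooth muscle. The 6 genes have no single pathway in common. Atp8a2 is a flippase that moves phosphatidylserine to the inner leaflet of the membrane. Lrrc55 is an auxiliary gamma subunit of the BK potassium channel, Wfdc1 is a secreted protein with a whey acidic protein (WAP) domain, and Chodl is a membrane protein with a C-type lectin domain. Slc22a3 (OCT3) carries organic cations such as monoamines, and Slc26a7 is an anion transporter known from stomach, kidney and thyroid.

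Start-site sequences were held for 3 of the 6 genes in RefSeq's promoter table (GRCm38.p6). They are shown to mark where open chromatin lay at these starts, and the peaks say nothing of sex. Each runs 5′ to 3′ on the gene's strand over 300 bases, of which 250 lie before the annotated start. Capitals mark the bases inside an ATAC-seq peak.
Chodl: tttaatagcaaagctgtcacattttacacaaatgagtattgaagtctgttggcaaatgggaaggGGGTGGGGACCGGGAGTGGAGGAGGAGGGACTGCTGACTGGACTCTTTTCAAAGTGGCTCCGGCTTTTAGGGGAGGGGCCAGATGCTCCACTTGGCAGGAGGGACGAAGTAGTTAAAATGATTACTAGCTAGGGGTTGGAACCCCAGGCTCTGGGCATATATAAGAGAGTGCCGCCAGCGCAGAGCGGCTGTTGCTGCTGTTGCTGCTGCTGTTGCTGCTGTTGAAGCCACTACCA
Lrrc55: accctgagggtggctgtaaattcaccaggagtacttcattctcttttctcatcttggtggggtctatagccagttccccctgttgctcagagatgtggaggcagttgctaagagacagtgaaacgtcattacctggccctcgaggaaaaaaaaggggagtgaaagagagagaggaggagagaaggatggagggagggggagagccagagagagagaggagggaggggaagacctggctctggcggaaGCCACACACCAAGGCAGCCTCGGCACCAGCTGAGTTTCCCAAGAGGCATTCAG
Slc22a3: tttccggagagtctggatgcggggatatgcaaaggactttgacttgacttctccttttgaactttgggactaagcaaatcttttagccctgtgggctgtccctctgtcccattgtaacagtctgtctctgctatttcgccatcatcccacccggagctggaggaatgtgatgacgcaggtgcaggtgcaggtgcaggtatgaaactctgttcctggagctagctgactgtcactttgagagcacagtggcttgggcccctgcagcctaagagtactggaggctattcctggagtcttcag
The Chodl window is chr16:78930698-78930997 on the plus strand, the Lrrc55 window chr2:85198701-85199000 on the minus strand and the Slc22a3 window chr17:12507655-12507954 on the minus strand. A peak covered 236 of the 300 bases at Chodl, 53 at Lrrc55 and none at Slc22a3, where the nearest peak lay 165 bases from the window, inside the gene. Their GC contents of 52.7%, 54.7% and 52.0% lay near the median of 52.7% over 32851 RefSeq windows.

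The 3 windows differed in the letters near the start. The Chodl window holds TATATAA, 29 bases before the start and inside the peak, and 3.24% of all RefSeq windows hold that string on either strand. The Slc22a3 window holds CAGGTG, an E-box string, at 75, 69 and 63 bases before the start, and 20.2% of windows hold it at least 1 time. Both strings were picked after the sequences had been read, and a match is a description of letters, not a binding site.

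Chodl, chondrolectin, lies at chr16:78930948-78951733 on the plus strand (mm10) and was the most constant of the 6 in its sex difference. Female libraries held 11.9, 8.0 and 14.3 CPM at E14.5 and 11.5, 8.52 and 9.32 CPM at E16.5. Male libraries held 90.5, 82.2 and 78.2 CPM at E14.5 and 74.2, 82.5 and 88.4 CPM at E16.5. Every male library was thus above every female library at both ages, and the ages overlapped within each sex. Females were lower by 7.32-fold at E14.5 (log2 difference -2.87, SE 0.171) and by 8.35-fold at E16.5 (-3.06, SE 0.17). The difference between those differences was -0.19 (SE 0.231, 95% interval -0.69 to 0.31). By size its E14.5 difference ranked 36 among 17263 tested autosomal genes.

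Slc22a3, the organic cation transporter, lies at chr17:12419972-12507704 on the minus strand and had nearly flat levels in males. They were 21.0, 22.2 and 21.6 CPM at E14.5 and 17.4, 25.8 and 22.0 CPM at E16.5. Females held 4.54, 4.7 and 6.3 CPM at E14.5 and 2.82, 2.04 and 2.27 CPM at E16.5, so the older females lay below the younger. How many of all tested genes separate the ages in this way was not counted. Females were 4.17-fold below males at E14.5 (log2 -2.06, SE 0.157) and 9.12-fold below at E16.5 (-3.19, SE 0.165). The wider gap at E16.5 went with the lower female level, which was -1.12 (SE 0.176) on the log2 scale between the ages, against 0.01 (SE 0.14) in males.

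Lrrc55, the BK channel subunit, lies at chr2:85162334-85196699 on the minus strand and showed the same arrangement more strongly. Female libraries held 4.44, 4.94 and 4.67 CPM at E14.5 and 0.465, 0.542 and 0.505 CPM at E16.5. Male libraries held 11.2, 10.3 and 10.9 CPM at E14.5 and 10, 15.9 and 11.6 CPM at E16.5. The older females were 9.23-fold below the younger (log2 -3.21, SE 0.202), while the male ages overlapped (0.2, SE 0.139). The sex difference was 2.31-fold at E14.5 (-1.21, SE 0.151) and 24.5-fold at E16.5 (-4.62, SE 0.191), lower in females both times.

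Wfdc1, the WAP-domain protein known from prostate stroma, lies at chr8:119666365-119688222 on the plus strand and moved apart from both sides. Female libraries held 6.28, 6.69 and 6.55 CPM at E14.5 and 2.25, 1.95 and 2.0 CPM at E16.5. Male libraries held 24.2, 24.9 and 27.0 CPM at E14.5 and 42.4, 61.3 and 55.5 CPM at E16.5. No 2 of the 4 groups overlapped, and the share of all tested genes for which this holds was not counted. Between the ages the log2 difference was -1.65 (SE 0.145) in females and 1.06 (SE 0.108) in males, so the female deficit of 3.91-fold at E14.5 (-1.97, SE 0.122) stood at 25.7-fold at E16.5 (-4.68, SE 0.136).

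Atp8a2, the flippase, lies at chr14:59638540-60197179 on the minus strand and was a low transcript everywhere but in E16.5 males. Males held 1.56, 2.44 and 3.19 CPM at E14.5 and 24, 38.1 and 35.7 CPM at E16.5. Females held 0.768, 1.35 and 0.76 CPM at E14.5 and 0.416, 1.01 and 0.429 CPM at E16.5, with overlap between the ages. The male ages differed by 13.0-fold (log2 3.7, SE 0.289). Females were 2.63-fold lower at E14.5 (-1.39, SE 0.381) and 52.4-fold lower at E16.5 (-5.71, SE 0.343), a difference that ranked 8 among the autosomal genes. Without E16.5 female replicate 2, the highest of its group, the E16.5 value was -6.27.

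Slc26a7, the anion transporter, lies at chr4:14502430-14621805 on the minus strand and changed sides between the ages. Females held 3.37, 1.27 and 2.5 CPM at E14.5 and 29.5, 37.0 and 43.7 CPM at E16.5. Males held 9.34, 5.63 and 6.96 CPM at E14.5 and 5.13, 5.61 and 4.3 CPM at E16.5. Every female library was below every male library at E14.5 (2.98-fold, log2 -1.57, SE 0.292) and above every one at E16.5 (7.37-fold, 2.88, SE 0.253). The female ages differed by 15.2-fold (3.92, SE 0.284), while the male log2 difference was -0.53 (SE 0.257) with a 95% interval of -1.09 to 0.03.

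The sexes did not overlap for any of the 6 genes at either age. Over all 17858 tested genes, the sexes did not overlap for 27.2% at E14.5 and 38.3% at E16.5, and edgeR's quasi-likelihood test with Benjamini-Hochberg adjustment at 0.05 called 6.28% and 27.3%. As the genes were chosen for their sex difference, nothing is read from that contrast. Without E14.5 female replicate 3, the library with Ddx3y and erythroid counts, the E14.5 log2 differences were -1.26 for Atp8a2, -1.21 for Lrrc55, -1.97 for Wfdc1, -3.07 for Chodl, -2.23 for Slc22a3 and -1.6 for Slc26a7. Without male replicate 3, the library with Xist counts, they lay between -1.12 (Atp8a2) and -2.92 (Chodl).

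**Figure D1:**
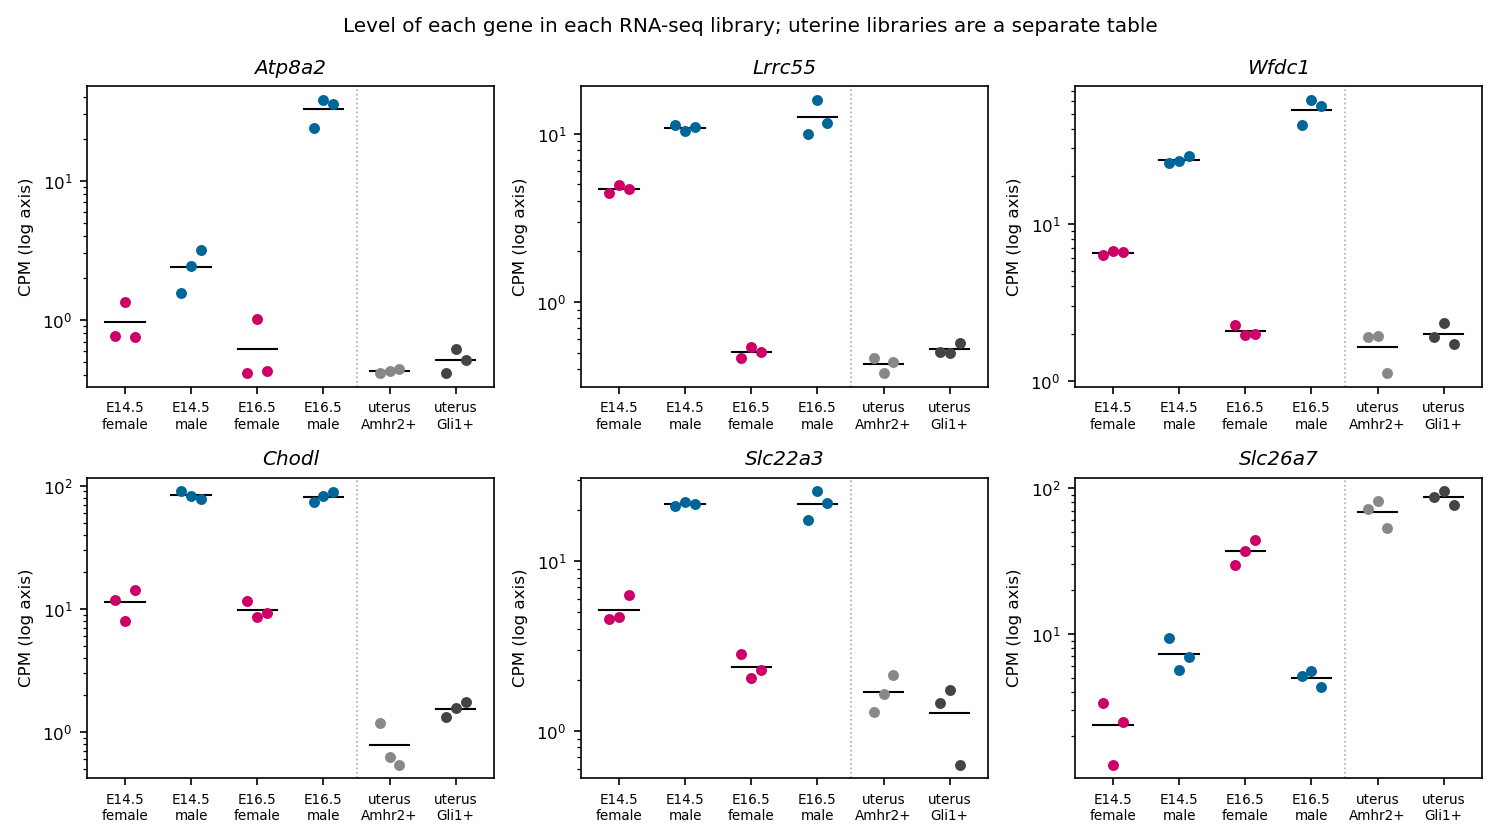
Level in CPM (log axis, a scale of its own in each panel) of the 6 genes in every RNA-seq library, with points for libraries and a line for the mean of 3; the dotted line parts the fetal table from the uterine table. Males lie above females for 5 genes at both ages, whereas Slc26a7 is highest in E16.5 females among the fetal groups and is the one of the 6 with a high uterine level.

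**Figure D2:**
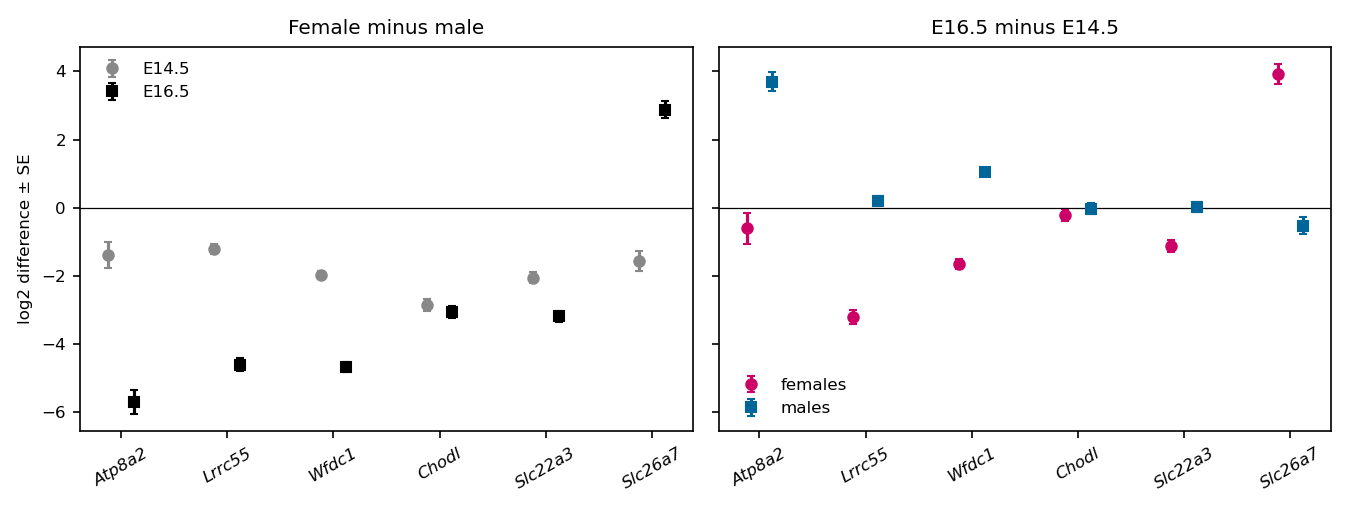
Log2 differences between the sexes at each age (left) and between the ages in each sex (right), with standard errors from 12 fetal libraries and no test. Lrrc55 and Slc22a3 differ between the ages mainly in females, Atp8a2 mainly in males and Wfdc1 in both with opposite signs.

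Set against each other per kilobase of merged GENCODE exons, the mean levels in E16.5 males were 34.5 CPM for Wfdc1, 14.9 for Chodl, 4.81 for Slc22a3, 2.11 for Atp8a2, 1.93 for Lrrc55 and 0.923 for Slc26a7. In E16.5 females the highest per-kilobase level was that of Slc26a7 at 6.77 CPM, followed by Chodl at 1.78 and Wfdc1 at 1.34. The order of the genes thus depended on sex, with Slc26a7 last in males and first in females.

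Over the 12 fetal libraries the closest pair was Chodl and Slc22a3, with a root mean square difference of 0.409 between their centred log2 CPM profiles. Wfdc1 and Slc22a3 followed at 0.554 and Lrrc55 and Wfdc1 at 0.653. Slc26a7 was far from all others, at 2.35 to 3.1. These figures describe 4 groups of libraries that share the sex contrast used for the choice.

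Among 14085 tested genes with a mean of at least 1 CPM, the profiles most like each gene were then looked up. Itgbl1, an integrin-beta-like secreted protein, was the nearest to Wfdc1 (0.51) and to Slc22a3 (0.339) and was also among the nearest to Chodl (0.638). Cldn1, a tight junction claudin, came second for Slc22a3 (0.377) and for Chodl (0.521), and Dleu7 was nearest to Chodl (0.454). Cldn1 held 16.7 ± 1.4 CPM in females and 59.0 ± 7.45 CPM in males of E14.5, and 10.6 ± 2.37 CPM in females and 59.5 ± 8.49 CPM in males of E16.5 (SD, n = 3). Its profile over the groups was the one described for Slc22a3, with level males and lower older females.

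The genes nearest to Lrrc55 were RP23-438F16.21 (0.267), RP23-89M14.3 (0.411) and Hhip (0.42), the Hedgehog-binding decoy receptor. Hhip held 37.2 ± 4.61 CPM in E14.5 females and 2.17 ± 0.455 in E16.5 females, against 62.5 ± 1.99 and 86.3 ± 18.7 in males (SD, n = 3). For Atp8a2 they were Dner (0.701), a Notch-related membrane protein, Myh11 (0.802) and Cnn1 (0.815), both contractile genes of smooth muscle. For Wfdc1, Tbata (0.521) and Adcy7 (0.548), an adenylyl cyclase, followed Itgbl1. For Slc26a7 they were Nov (0.505), a matricellular CCN protein, RP23-407B23.1 (0.558) and Zfp804a (0.567). Cbln2 (0.39) completed the list of Slc22a3. When likeness was measured by Pearson correlation instead, 3 of these 18 places were filled by the same gene. None of them was a place of Atp8a2, for which Dner ranked 10, Cnn1 77 and Myh11 93 by that measure. In E16.5 females Tbata (0.0743 CPM), Dner (0.124 CPM), RP23-438F16.21 (0.132 CPM) and RP23-89M14.3 (0.14 CPM) lay near the floor.

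Summed smooth muscle markers were higher in males at both ages, as were Atp8a2, Lrrc55, Wfdc1, Chodl and Slc22a3. Summed over Acta2, Myh11, Cnn1, Tagln and Des, they reached 302 to 325 CPM in females and 604 to 885 CPM in males at E14.5, then 464 to 564 CPM in females and 1698 to 2856 CPM in males at E16.5, and none of the 5 was at 0. Females were lower for 3 of the 5 at E14.5 and for 4 of the 5 at E16.5 by edgeR's test. Myh11 held 15.5 ± 1.76 CPM (SD, n = 3) in females at E16.5, and the males held 215, 386 and 342 CPM, with replicate 1 the lowest, as it was for Atp8a2, Lrrc55, Wfdc1, Chodl and Slc22a3. In females the summed markers were higher at E16.5 than at E14.5. Most of that sum was Acta2 (170 CPM on average at E14.5 and 275 at E16.5) and Des (130 and 205). Tagln alone of the 5 markers was lower in E16.5 females (4.62 and 2.92). Female levels of Lrrc55 were 9.23-fold, of Wfdc1 3.15-fold and of Slc22a3 2.18-fold lower at E16.5. In males the sum was also higher at E16.5. The male log2 difference between the ages was -0.03 for Chodl, 0.01 for Slc22a3 and 0.2 for Lrrc55. In sorted bulk cells a larger share of smooth muscle cells and more RNA per cell cannot be told apart, and the part of these markers in the 6 genes' differences was not tested. In the uterus the same markers summed to 1117 to 1760 CPM in Amhr2+ and 2093 to 2321 CPM in Gli1+ cells. Atp8a2 and Lrrc55 were under 1 CPM in all 6 uterine libraries. No test linked these levels to the markers.

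Immune markers went the way of Slc26a7 at E16.5. Of 5 such markers, 3 were higher in E16.5 females by edgeR's test and 0 lower: Csf1r (1.92, edgeR adjusted p = 0.00211), Adgre1 (2.25, edgeR adjusted p = 0.0024) and C1qa (1.63, edgeR adjusted p = 0.00269), all known from macrophages. The 5 summed to 27.8 to 71.1 CPM in females and 12.3 to 46.2 CPM in males, so the groups overlapped, and none was at 0. Their part in the higher female level of Slc26a7, and in the relatives that were higher in E16.5 females, was not tested.

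The uterine libraries asked whether any of the 6 genes separates Amhr2+ from Gli1+ cells, in libraries, a tissue and at an age that the choice did not use. The Amhr2 transcript was 11.1 ± 4.31 CPM in Amhr2+ and 4.1 ± 0.997 CPM in Gli1+ cells (SD, n = 3 each). The Gli1 transcript was 10.5 ± 2.63 CPM and 17.9 ± 2.85 CPM, so both transcripts were present in both populations. In the fit without a term for replicate number, 0 of 6 passed edgeR's quasi-likelihood test, where 23.9% of 16195 tested genes did. DESeq2 also called 0 of 6, where it called 4261 genes in all. At an unadjusted p under 0.05 there was 1 of the 6 by edgeR and 2 by DESeq2. The share of all genes at that level was not counted, so nothing is read from these counts. The libraries did not overlap for 2 of the 6, Chodl and Lrrc55, against 44.4% of all tested genes.

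Slc26a7 was the one gene abundant in uterus, with 71.3, 80.8 and 53.2 CPM in Amhr2+ and 86.7, 95.1 and 76.4 CPM in Gli1+ cells. The groups overlapped, and the log2 difference of Amhr2+ minus Gli1+ was -0.33 (SE 0.151, 95% interval -0.68 to 0.02, edgeR adjusted p = 0.155). With a term for replicate number the difference passed (-0.35, edgeR adjusted p = 0.00747), but the labels do not say what a number shares. Its per-kilobase mean was 12.6 CPM in Amhr2+ and 15.9 CPM in Gli1+ cells.

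Chodl held 1.19, 0.62 and 0.542 CPM in Amhr2+ and 1.31, 1.55 and 1.75 CPM in Gli1+ cells, low in all 6. Its difference of -0.95 (SE 0.324, 95% interval -1.69 to -0.21) had an edgeR adjusted p of 0.0667. Without Amhr2+ replicate 1, the highest of its group, it was -1.39 with an edgeR adjusted p of 0.0286, and among the alternatives run it passed only with that library left out.

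Lrrc55 held 0.467, 0.378 and 0.441 CPM in Amhr2+ and 0.506, 0.495 and 0.573 CPM in Gli1+ cells, a difference of -0.29 (SE 0.283, interval -0.94 to 0.35, edgeR adjusted p = 0.487). Atp8a2 held 0.415, 0.431 and 0.441 CPM against 0.417, 0.619 and 0.513 (-0.27, interval -0.94 to 0.41, edgeR adjusted p = 0.552). Wfdc1 held 1.89, 1.94 and 1.12 CPM against 1.91, 2.32 and 1.72 (-0.25, interval -0.84 to 0.34, edgeR adjusted p = 0.512). These 3 genes were thus low in both cell populations, and their intervals reach down to -0.94, -0.94 and -0.84. Slc22a3 held 1.3, 1.64 and 2.14 CPM in Amhr2+ and 1.46, 1.73 and 0.633 CPM in Gli1+ cells (0.4, interval -0.43 to 1.23, edgeR adjusted p = 0.459). The fetal and uterine tables were made with different library kits and normalized separately, so levels are not compared across them by a test.

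The genes that encode relatives and partners of the 6 proteins were tested next. The lists follow the families of the 6 proteins, but they were drawn up with earlier results of these data known. Of 100 listed genes, 51 were tested in the fetal table. At E14.5, 3 of the 51 (5.88%) were called, 1 higher and 2 lower in females, where 2.59% of all tested genes were higher and 3.69% lower. At E16.5, 19 (37.3%) were called, 13 higher and 6 lower in females, where 13.2% of all genes were higher and 14.1% lower. The sex difference changed between the ages for 10 (19.6%), 7 toward females and 3 toward males, where 10% of all tested genes changed, 4.66% and 5.36% by direction. In the uterus 26 of 55 (47.3%) were called, 12 higher in Amhr2+ and 14 higher in Gli1+ cells, where 10.1% and 13.7% of all tested genes were.

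Flippases work with a CDC50 partner, Tmem30a in most tissues. At E16.5, 5 of 15 tested genes of this list were called, 3 higher and 2 lower in females (median log2 -0.02, all genes 0.01). Atp10a was lower in E16.5 females, with 18 ± 0.339 CPM against 48.7 ± 6.87 in males (log2 -1.44, SE 0.0954, edgeR adjusted p = 2.32e-08), the direction of Atp8a2. Atp8a1, the closest relative of Atp8a2, was higher in females at 30.1 ± 1.96 against 18 ± 0.618 CPM (0.74, edgeR adjusted p = 8.96e-06), and so was Atp8b1 at 21.0 ± 2.97 against 9.53 ± 2.17 CPM (1.14, edgeR adjusted p = 4.78e-05). The partner Tmem30a was slightly lower in females, 93.3 ± 8.2 against 122 ± 8.06 CPM (-0.39, edgeR adjusted p = 0.00149). In the uterus Tmem30b was lower in Amhr2+ cells (-2.28, SE 0.196, edgeR adjusted p = 1.47e-04), as was Atp8b1 (-0.76), while Atp8a1 was higher (0.59).

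For the BK channel, 3 of 7 genes were tested, and 2 were called at E16.5 in opposite directions. The smooth muscle subunit Kcnmb1 was lower in females, 2.65 ± 0.594 against 6.62 ± 0.889 CPM (-1.31, edgeR adjusted p = 2.79e-05), the direction of Lrrc55. The pore-forming subunit Kcnma1 was higher, 70.1 ± 3.33 against 51.7 ± 8.29 CPM (0.44, edgeR adjusted p = 0.0154), a call lost without E16.5 female replicate 2 (0.055). In the uterus Kcnma1 was lower in Amhr2+ cells, 37.3 ± 2.56 against 78.9 ± 5.62 CPM (-1.08, edgeR adjusted p = 6.53e-05).

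Of 22 WAP-domain genes 5 were tested in the fetal table. At E16.5 Wfdc2 was called, higher in females at 2.03 ± 0.708 against 0.892 ± 0.214 CPM (1.19, edgeR adjusted p = 0.00803), opposite to Wfdc1. At E14.5 Wfikkn2, which binds growth factors of the myostatin group, was lower in females, 32.9 ± 3.02 against 42.7 ± 2.29 CPM (-0.38, edgeR adjusted p = 0.00752), a call lost without female replicate 1 (0.0547), female replicate 2 (0.0513) or male replicate 3 (0.0538). In the uterus Wfdc2 was higher (0.85) and Wfikkn2 (-0.67) and Wfdc10 (-1.75) lower in Amhr2+ cells, the last call being lost without Amhr2+ replicate 1 (0.0544). Markers of epithelium were also higher there, with 4 of 6 tested called, Krt8 (1.2), Krt18 (1.21), Epcam (1.08) and Krt19 (0.78), and 0 lower. All 7 listed summed to 71.0 to 72.7 CPM in Amhr2+ and 30.8 to 42.6 CPM in Gli1+ cells, none was at 0, and their part in the higher Wfdc2 was not tested.

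Among 9 lectin-domain relatives of Chodl, 4 of 7 tested were called at E16.5, all higher in females, opposite to Chodl (median log2 0.46). Layilin, encoded by Layn and the closest relative, held 7.95 ± 0.765 CPM in females and 5.8 ± 0.762 in males (0.46, edgeR adjusted p = 0.0142). That call was lost without E16.5 female replicate 2 (0.0725) or male replicate 3 (0.072). In the uterus 7 of 9 were called. Clec3b (tetranectin) held 0.198 ± 0.0929 CPM in Amhr2+ and 5.53 ± 1.0 in Gli1+ cells (-4.82, SE 0.306, edgeR adjusted p = 3.07e-05). Thbd (-1.61) and Cd93 (-1.51) were also lower in Amhr2+ cells. Of the list, 5 were lower and 2 higher there, the higher being Clec1a (2.49) and Clec14a (0.52, edgeR adjusted p = 0.0469). Endothelial markers summed to 23.3 to 29.3 CPM in Amhr2+ and 35.0 to 43.5 CPM in Gli1+ cells. By edgeR's test 2 of these 5 markers were lower in Amhr2+ cells and 0 higher, and their part in the differences of the list was not tested.

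Of 24 SLC22 relatives of Slc22a3, 8 were tested and 2 called at E16.5. Slc22a8 was lower in females at levels near the floor, 0.0742 ± 0.0424 against 0.417 ± 0.026 CPM (-2.44, SE 0.506, edgeR adjusted p = 0.00193). Slc22a17 was higher, 212 ± 6.45 against 159 ± 22.9 CPM (0.42, edgeR adjusted p = 0.00241). In the uterus Slc22a5, the carnitine transporter, was higher in Amhr2+ cells (0.49, edgeR adjusted p = 0.00321), and Slc22a17 was lower (-0.27, edgeR adjusted p = 0.035), a call lost without any 1 of 4 libraries and when library size alone set the scale (0.114).

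The list of other amine transporters and amine-degrading enzymes gave the fetal difference with the smallest adjusted p among the named relatives. Maob, monoamine oxidase B, held 3.67, 3.7 and 4.45 CPM in females and 7.49, 10.4 and 10.8 CPM in males of E14.5, and 11.1, 10.9 and 11.1 CPM in females and 51.6, 58.1 and 63.6 CPM in males of E16.5. Females were lower at E14.5 (-1.3, SE 0.138, edgeR adjusted p = 3.03e-05) and at E16.5 (-2.39, SE 0.119, edgeR adjusted p = 1.13e-09). This is the direction of Slc22a3, which takes up monoamines, but Maob was higher at the older age in both sexes. Maob lies on the X chromosome. In the uterus the noradrenaline transporter Slc6a2 was higher in Amhr2+ cells, 5.19 ± 0.215 against 0.929 ± 0.132 CPM (2.48, edgeR adjusted p = 6.53e-05). Slc29a4 was also higher there (1.05), a call lost without Amhr2+ replicate 1 (0.0629).

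In the SLC26 list, to which the chloride channel Cftr was added because it works beside several SLC26 proteins, 3 of 7 tested were called at E16.5, all higher in females, as Slc26a7 was. Cftr held 3.4 ± 0.131 CPM in E16.5 females and 1.21 ± 0.209 in males (1.47, SE 0.209, edgeR adjusted p = 7.12e-05), and it was also higher in females at E14.5 (1.08, edgeR adjusted p = 0.0113), where Slc26a7 was lower. The E14.5 call was lost without female replicate 1 (0.0646) or male replicate 3 (0.0718). Slc26a10 (0.76, edgeR adjusted p = 0.00923) and Slc26a2 (0.31, edgeR adjusted p = 0.0337) were the other two, and the Slc26a2 call was lost without E16.5 female replicate 1 (0.0707), female replicate 2 (0.172), male replicate 1 (0.102) or male replicate 3 (0.141). In the uterus Cftr was higher in Amhr2+ cells, 21.9 ± 5.0 against 6.35 ± 0.656 CPM (1.79, edgeR adjusted p = 2.4e-04). The epithelial markers given beside Wfdc2 were higher in the same cells, and their part in the Cftr difference was not tested.

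**Figure D3:**
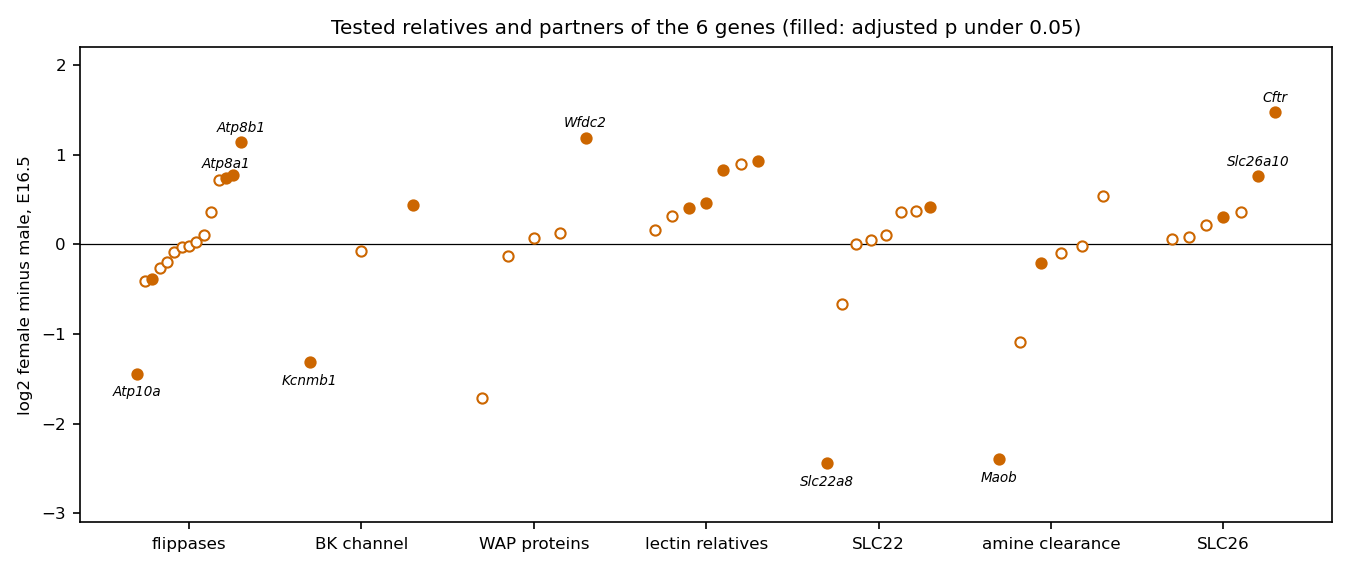
Log2 female minus male difference at E16.5 of each tested relative or partner, by list, with filled circles for an edgeR adjusted p under 0.05. The called genes lie on both sides of 0 in 3 of the 7 lists, and Maob and Slc22a8 are lowest.

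The neighbours of the 6 genes on their chromosomes were compared with them. For Lrrc55 and Wfdc1, a neighbour differed between the sexes in the same direction at both ages. RP23-89M14.3, a gene on the strand opposite to Lrrc55 that begins 233 bases beyond the end of Lrrc55 in the table, at chr2:85196932-85198675, held 1.0, 0.876 and 0.797 CPM in females and 2.82, 1.88 and 2.89 CPM in males of E14.5. By E16.5 the levels were 0.22, 0.123 and 0.0758 CPM in females and 2.2, 4.46 and 2.17 in males. The female deficit was -1.49 (edgeR adjusted p = 0.0103) at E14.5, a call lost without female replicate 3 (0.0572) or male replicate 3 (0.0607), and -4.34 (SE 0.398, edgeR adjusted p = 6.87e-07) at E16.5, close to the -4.62 of Lrrc55.

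The RefSeq start of Lrrc55 lies 2051 bases beyond the table's end of that gene and 75 bases beyond the far end of RP23-89M14.3, so by RefSeq the neighbour lies wholly opposite Lrrc55. The fetal libraries were made with a kit that keeps no strand, and reads of Lrrc55 and RP23-89M14.3 cannot be told apart there. In the 6 uterine libraries, made with a stranded kit, RP23-89M14.3 had 0 counts while Lrrc55 was counted in all 6. RP23-89M14.2, which overlaps Lrrc55 on the opposite strand, was lower in E16.5 females too (-2.19, edgeR adjusted p = 9.27e-04), under the same limit.

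Kcng4, a modifier subunit of voltage-gated potassium channels, lies 30.7 kb from Wfdc1 on the opposite strand. It held 0.635, 0.478 and 0.905 CPM in females and 1.47, 1.67 and 2.04 CPM in males of E14.5, and 0.392, 0.591 and 0.48 CPM in females and 3.73, 3.71 and 3.75 CPM in males of E16.5. Females were lower at E14.5 (-1.37, edgeR adjusted p = 0.00252) and at E16.5 (-2.93, SE 0.225, edgeR adjusted p = 1.08e-07), so this gene differed in the direction of Wfdc1 at both ages. On the other side of Wfdc1, Tldc1, 71.9 kb away, did not pass at either age (0.17 and 0.29).

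Among the other nearest neighbours the sex difference at E16.5 was at most -0.88 in size (Aplnr, edgeR adjusted p = 0.0661). Nupl1, 8.1 kb from Atp8a2, was lower in E16.5 females, 34.5 ± 3.94 against 49.5 ± 3.55 CPM (-0.52, edgeR adjusted p = 1.82e-04). This is the direction of Atp8a2, but Nupl1 was not called at E14.5 (0.04). Igf2r, the imprinted growth factor receptor 175 kb from Slc22a3, held between 638 and 704 CPM on average in the 4 fetal groups and was not called (-0.07 at E14.5, 0.14 at E16.5 with edgeR adjusted p = 0.153). Runx1t1, 609 kb from Slc26a7, was lower in E14.5 females (-0.48, edgeR adjusted p = 0.0126), the direction of Slc26a7 at that age. That call was lost without female replicate 2 (0.0586) or 3 (0.0738). Runx1t1 was higher in Amhr2+ cells of the uterus (0.65, edgeR adjusted p = 7.51e-04). In the uterus Aplnr (-1.29, edgeR adjusted p = 0.0262), 22.4 kb from Lrrc55, and Ncam2 (-1.1, edgeR adjusted p = 0.0165), 2250 kb from Chodl, were lower in Amhr2+ cells. The Aplnr call was lost under 6 of 11 alternatives and the Ncam2 call without Amhr2+ replicate 2 (0.0544). Shisa2, D16Ertd472e, 4732491K20Rik and Otud6b were called in none of the 3 contrasts between groups.

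**Figure D4:**
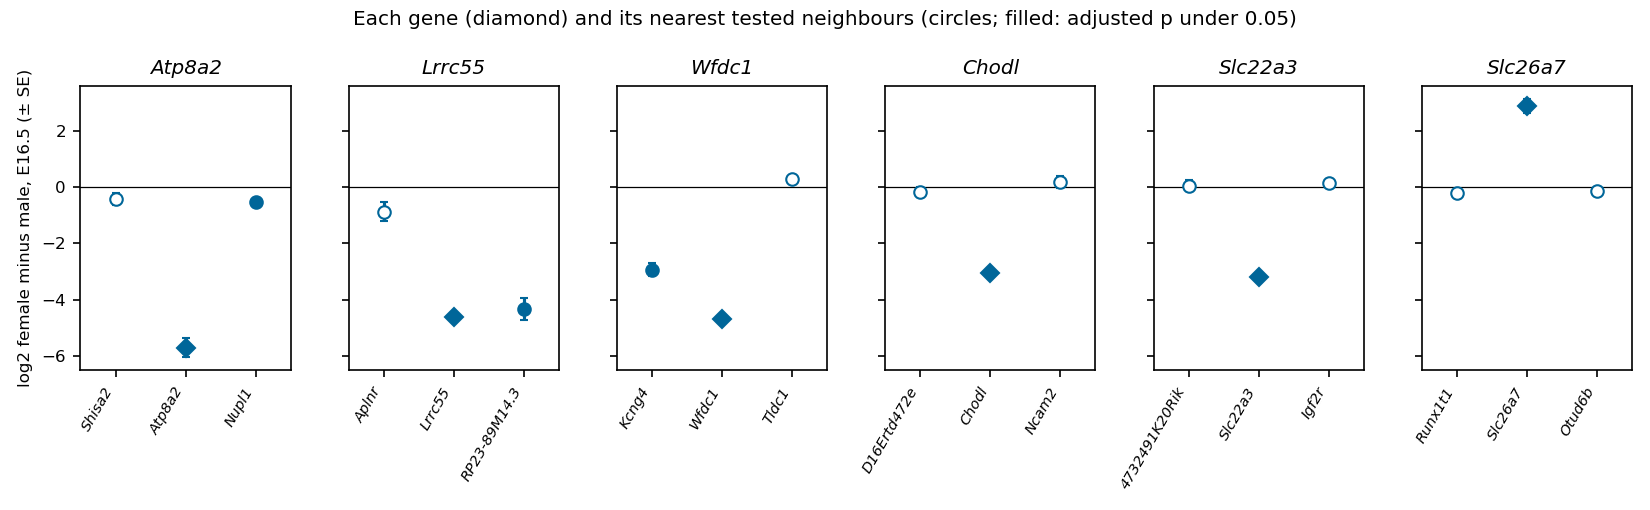
Log2 female minus male difference at E16.5, with standard errors, of each of the 6 genes (diamond, not tested) and its nearest tested neighbour on either side (circles, filled for an edgeR adjusted p under 0.05). RP23-89M14.3 lies beside Lrrc55 in value, Kcng4 lies part of the way to Wfdc1, and the neighbours of Chodl, Slc22a3 and Slc26a7 lie near 0.

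Open chromatin was compared with the genes last. The list of 71040 peaks is one for all groups, so it says where chromatin was open in some sample and nothing of sex. A peak lay within 1 kb of a GENCODE start for 5 of the 6 genes, against 89.1% of 14577 tested genes, and within 10 kb for all 6, against 96.3%. Lrrc55 was the exception by GENCODE, its nearest peak lying 1239 bases from the start, but that peak covers the RefSeq start shown above. The nearest peak of Wfdc1 lay 813 bases from its start, outside the gene. Starts of all annotated transcripts counted here. For Atp8a2 the starts with a peak lie inside the gene, the peaks being centred 19.9 and 110.3 kb from its 5′ end, and no peak lay nearer that end.

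In and within 10 kb of the 6 genes there were 40 peaks. Atp8a2, the longest, had 13, all inside the gene and 4 of them touching an exon. Slc22a3 had 8, of which 5 were intronic, and Wfdc1 had 7, of which 4 were intronic. Slc26a7 had 6, with 1 at its start and 5 in introns, and Chodl and Lrrc55 had 3 each.

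The 40 peaks were searched, as 300-base windows on both strands, for known motif strings. The GLI string GACCACCCA, the inverted-repeat steroid hormone response element, the inverted-repeat oestrogen response element and the CArG box of serum response factor were found in 0 of 40, and over all peak windows they were found in 0.463%, 0.0662%, 0.223% and 1.9%. With such rare strings, 0 of 40 says only that the letters are not in these windows. The nuclear receptor string AGGTCA was in 8 of 40 (20%, all windows 16.7%), TATAAA in 10 (25%, all 15%) and GGGCGG in 6 (15%, all 22.7%).

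**Figure D5:**
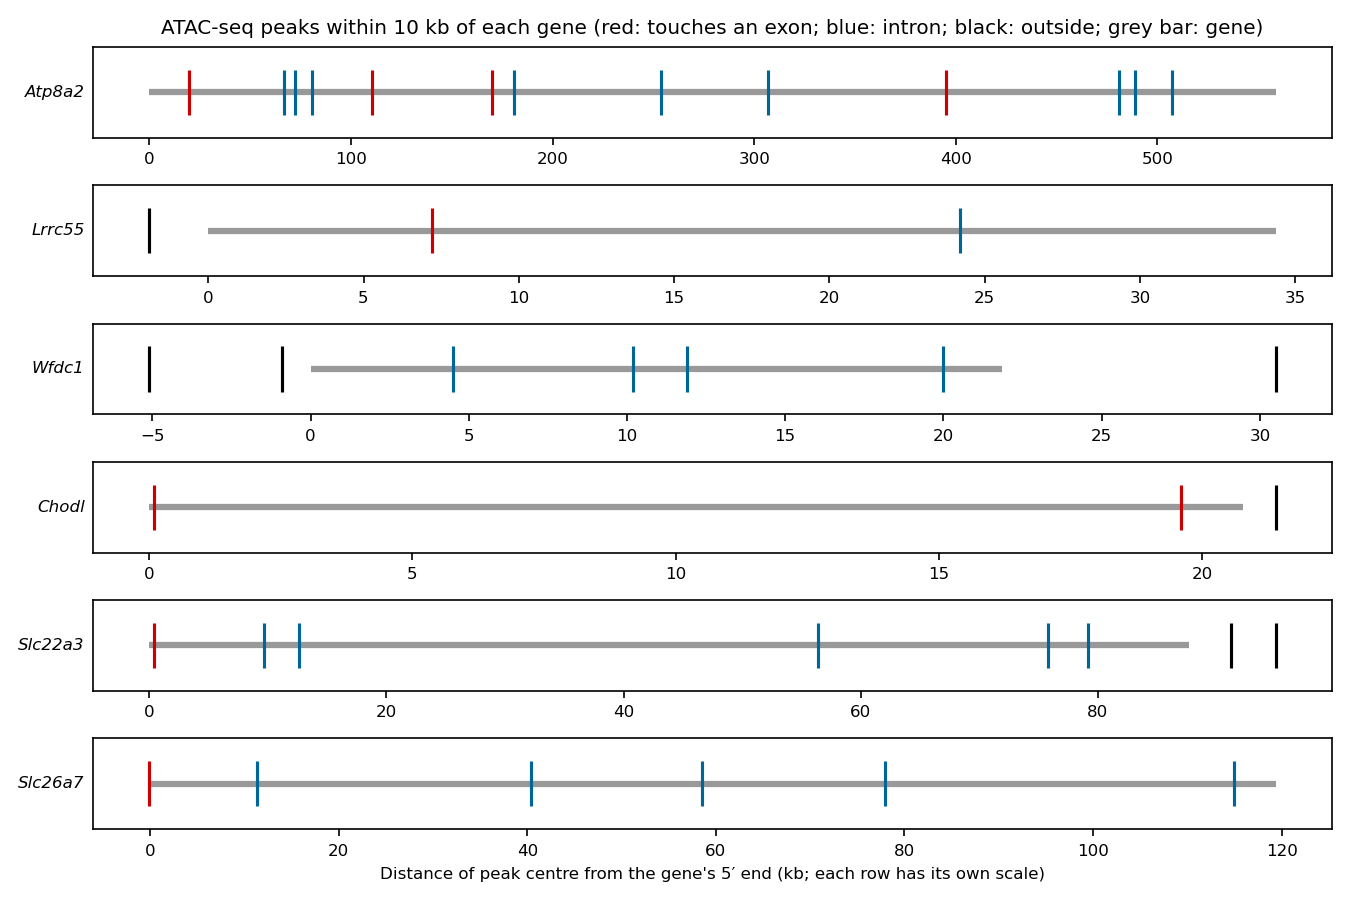
Position of each ATAC-seq peak centre relative to the gene's 5′ end in kilobases, on a scale of its own in each row, with the gene as a grey bar and colours for peaks touching an exon (red), in an intron (blue) or outside (black). Chodl and Slc26a7 have a peak over the 5′ end, the nearest peak of Slc22a3 is centred 0.4 kb inside the gene, and the peaks of Atp8a2 lie inside the gene.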

How the data were processed

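The deposited files used were 2 tables of whole-number read counts per gene, 41442 rows each, and 1 unified list of ATAC-seq peaks; the list's start and end coordinates are the authors' own and carry no score. Per the submitters' processing notes, the tools were STAR 2.5, featureCounts and Subread 1.5.0-p1, and for chromatin Bowtie 1.2, SAMtools 1.3.1, Picard, bedtools 2.24.0 and MACS2 2.1.1, on mm10. Per the labels' protocols, fetal libraries used a non-stranded and uterine libraries a stranded TruSeq kit; the strand setting of the counting and the peak threshold are not given in the sources used here.

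Each table was fitted alone with edgeR 4.0.16 in R 4.3.3: filterByExpr with a minimum count of 10, TMM scaling, robust quasi-likelihood fits of group means (4 groups over 12 fetal libraries, 2 over 6 uterine libraries), Benjamini-Hochberg adjustment over all 17858 or 16195 genes tested, threshold 0.05. CPM uses TMM-scaled totals, and intervals are 95%. Scripts were tested on simulated data. No 2 replicates held identical values. A symbol was repeated in 64 rows, none of them a member's, and each was kept as a row of its own. Exon lengths and start sites came from GENCODE vM21, sequences from RefSeq (GRCm38.p6). The labels do not say what a replicate number shares. At E16.5, deviations of same-numbered females and males from their group means correlated at 0.28, 0.11 and 0.4. Differently numbered libraries ran from -0.34 to 0.11, the last for female replicate 2 with male replicate 1. A link by number thus shows for replicates 1 and 3 but not for replicate 2. The tests given above use no pairing.

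The 6 genes and all lists were chosen with earlier results of these data known. Named besides them were up to 4 genes per family list with the largest change among those past the threshold, the partners Tmem30a, Kcnma1, Layn and Igf2r, overlapping and nearest tested neighbours, and the 3 nearest profiles per gene by root mean square difference of log2 CPM (prior count 2). A gene that this rule also names is counted in its list and not reported here. Alternatives were other scalings, no count filter, DESeq2 1.42.0, the replicate block, the 6 compared libraries alone and each library left out.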

Additional observations from a re-analysis of the deposited data

Results flagged for a closer look

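For 2 of the 6 genes the groups moved in opposite directions, a difference that was not tested because the choice of genes used it. The sexes of Slc26a7 were separated in opposite directions at the 2 ages. Its ages also lay apart in opposite directions in the 2 sexes, but in males only narrowly. The lowest E14.5 male library held 5.63 CPM and the highest E16.5 male library 5.61 CPM. The male log2 difference between the ages was -0.53 with an interval of -1.09 to 0.03, so its direction in males is not settled. The difference between the sex differences of Slc26a7 was 4.46 on the log2 scale. The ages of Wfdc1 were separated in opposite directions in the 2 sexes, with a value of -2.72.

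Among relatives and neighbours, the sex difference at E16.5 differed from that at E14.5 by edgeR's interaction test for 13 named genes. Toward lower female levels at E16.5, the log2 values were -2.85 for RP23-89M14.3 (edgeR adjusted p = 0.00269), -1.56 for Kcng4 (0.00657), -1.27 for Atp10a (1.59e-05), -1.09 for Maob (9.23e-04), -1.07 for Shisa2 (0.0327), -0.56 for Nupl1 (0.00465) and -0.43 for Tmem30a (0.0189). Toward higher female levels they were 1.07 for Slc26a10 (0.0277), 0.89 for Atp8b1 (0.036), 0.84 for Atp8a1 (3.31e-04), 0.68 for Kcnma1 (0.023), 0.51 for Wfikkn2 (0.00547) and 0.49 for Slc22a17 (0.02). Those of Shisa2, Tmem30a, Slc26a10, Atp8b1, Kcnma1 and Slc22a17 lost the call without at least 1 library, with adjusted p up to 0.131 (Atp8b1 without E14.5 male replicate 3).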

How the results depend on the processing

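Of 216 recomputed sex differences of the 6 genes, 0 reversed; of 522 recomputed fetal values, 16 moved by over 1 SE. Of 57 calls on relatives and neighbours, 38 held under every alternative run. Leaving out single libraries moved the number of genes called at E14.5 from 1121 to between 553 and 1678, that of the interaction from 1790 to between 1335 and 2687 (2687 without E16.5 male replicate 1), and that of the uterus from 3866 to between 1949 (without Amhr2+ replicate 1) and 3521 (2521 without Gli1+ replicate 1); the cause was not tested. Relatives called at E14.5 went from 3 to 1 without female replicate 1 or male replicate 3, and those of the interaction from 10 to 6 without E14.5 female replicate 2, to 5 without E16.5 female replicate 2 and to 6 when E16.5 male replicate 3 was left out. In the uterus, Chodl ran from -1.39 to -0.75 over the left-out libraries and passed without Amhr2+ replicate 1 (edgeR adjusted p = 0.0286). With library size as the only scaling, uterine calls were 2849 higher and 1640 lower in Amhr2+ cells, against 1642 and 2224. Same-numbered libraries correlated weakly at E14.5 (0.073, 0.05 and 0.051). In the uterus they correlated at 0.0018, 0.22 and 0.24, where differently numbered libraries reached 0.13. Whether the numbers pair the uterine libraries is therefore not settled. With the replicate block the calls numbered 1581 at E14.5, 5901 at E16.5, 2592 for the interaction and 4725 in the uterus; in that fit Slc26a7 passed in the uterus (-0.35, edgeR adjusted p = 0.00747), and the block ended no named call. Depth limits Slc22a8, RP23-89M14.3 and RP23-89M14.2, which lay near the floor of 3 counts in E16.5 females.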
